A study of Arabidopsis thaliana with 2 samples.

Results

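PLT3 bound naked root DNA at 338 places whose centre lay 0 to 500 bp downstream of the transcription start site (TSS) of a protein-coding gene. They were taken from the 1996 peaks that PLT3 gave on the nuclear chromosomes of Arabidopsis thaliana, and so made up 16.9% of them. For each peak, the centre was the midpoint between its start and end, and the nearest TSS was the 5′ end of the nearest of 27444 protein-coding genes, with the distance counted along the strand of the gene. The 338 peaks belonged to 338 distinct genes. No measured binding strength entered this choice beyond the q-value limit of 0.05 that the authors set for all peaks.

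The peaks came from DAP-seq, which sequences the fragments of purified genomic DNA that stick to a tagged transcription factor synthesised in a wheat germ extract. The DNA was from whole roots of wild-type Col-0 plants at 5 days post-germination, and the eluted fragments went through 20 cycles of amplification. The labels give 200 ng as the genomic DNA at the start, whereas the methods give this amount for the prepared library that entered the binding reaction. It was offered to 3xFLAG-PLT3 in 1 library and, as the negative control, to 3xFLAG-EGFP in 1 other, both pulled down on anti-FLAG beads. The DNA carries no chromatin proteins, the roots were not dissected into cell types, and neither protein has a replicate. All intervals below therefore cover only counting error over peaks, genes or sites.

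PLETHORA (PLT) proteins are AP2-domain transcription factors that maintain stem cells and division in the root meristem and act in the early embryo. They recognise a long and variable DNA element with a GC-rich and a purine-rich portion, which both AP2 repeats of the protein are thought to contact. The start of a plant gene holds the 5′ UTR, the start codon and often the first intron, and sequence there can regulate the gene as sequence upstream does.

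The sequence at the summits was described by matches to a matrix learnt from the peaks themselves. All nuclear peaks on chromosomes 1, 3 and 5 trained a matrix of 16 positions on the 100 bp at their summits. Its most constant bases were G at position 5 (90.0% of sites), T at position 3 (84.2%) and G at position 12 (83.6%), whereas no base passed 31% at position 10. A site counted when its log2 score reached 8.71, which 5% of windows 500 bp away from the training summits did. The best site of each of the 10 peaks with the largest fold enrichment is given here 5′ to 3′ in the direction of the matrix, with the 16 matched bases in capitals and 5 flanking bases on each side.
AT1G64455: attttTCTGGGAATCCGGGTCctccg
AT4G33585: ccgggTCTTGGGAACTGAGGAaaact
AT5G22310: ttgaaTCTGGGAAATTGTGTTttatt
PEX11D: gttgtCCTAGATATGTGTGCCacgtg
AT1G32360: tttttTCTTGGGTTTCACAAAatttg
MLS: gcctcCTTGGGAAAGTGTGCCaagtt
AT5G17070: gccgtCATTGGGATGAACGCCgtcat
AT3G04350: tgttcCTCCGGGAACTGGGAAaatca
ATU2AF65A: aattaCCTTGGGTTTCGAGTCcaatt
IKU2: acgaaTCTCGGGAAATGTAATcgctt

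In 9 of these 10 the site passed the threshold. The exception was AT1G32360, whose best score was 6.801. In 7 of the 9 the matrix read on the strand opposite to the gene. The 3 members with the highest scores were other genes, and their sites are shown because they are closest to the matrix.
AT1G33290: ttagaCCTCGAGAAATGCGCCgagat
UCN: aaactCCTCGGAAAAGGCGCCaccgg
AT4G19870: tacgaCCTCGAGATCCGAGCTaagca

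These scored 17.25, 16.75 and 16.75. The fold enrichments of their peaks were 4.27 at AT1G33290, 6.37 at UCN and 3.74 at AT4G19870. That of UCN lay above the upper quartile of the 338 peaks (5.68), and those of the other 2 lay below their median (4.65).

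Of the 338 peaks, 263 or 77.8% (95% Wilson interval 73.1 to 81.9%) had a site in the 100 bp at the summit, where 70.7% of all nuclear peaks did and 69.2% (67.0 to 71.4%) of the nuclear peaks outside the 338. The share of the 338 fell to 39.6% with a threshold that 1% of flanking windows pass and to 48.8% in windows at the peak centre. On chromosomes 2 and 4, which the matrix had not seen, 79 of 101 peaks had a site, or 78.2% (69.2 to 85.2%), against 70.4% (66.8 to 73.8%) of all nuclear peaks there. In windows 500 bp from the same summits, on the plus strand side, 11 of the 338 (3.25%) had one, and of all 100 bp windows in the first 500 bp of all coding genes 7.21% did. The middle of the best site lay a median of 4.5 bp from the summit, and 87.1% of the sites lay within 20 bp of it. In all nuclear peaks these values were 5.5 bp and 82.2%. Over 500 and up to 1500 bp downstream they were 4.5 bp and 87.7%. The 100 bp window limits how far from the summit a site can lie.

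Shorter words were searched on both strands of the same windows. TNGGGA was found at 132 summits or 39.1% (34.0 to 44.3%), against 32.9% of all nuclear peaks and 13% of the windows in the first 500 bp of coding genes. CNTNGGGA, which contains TNGGGA, was found at 55 or 16.3%, against 14.1% and 2.32%. CTTCTTCTT, a repeat common after plant TSSs, was found at 11 or 3.25%, against 1.25% of all nuclear peaks and 4.60% of the windows. A match to these letters is a description of the sequence and not a measured contact.

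The fold enrichment, as the authors' peak caller gave it over the local background, had a median of 4.65 (quartiles 3.94 and 5.68) and ran from 2.58 to 15.8. In all nuclear peaks the median was 4.75, in the 335 peaks over 500 and up to 1500 bp downstream it was 4.59 and in the 436 peaks up to 4 kb upstream 4.86. The 95% interval of the median of the 338, 4.47 to 4.79, overlapped that of each of these groups. A q-value of at most 1e-05 was reached by 147 of the 338 (43.5%, 38.3 to 48.8%), against 47.3% of all nuclear peaks. Their median width was 301.5 bp (158 to 882 bp), against 321 bp in all nuclear peaks.

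The strongest binding lay at genes of varied kinds. AT1G64455, annotated as a collagen triple helix protein, had the largest fold enrichment at 15.8, with its peak at chr1:23941841-23942505 and its centre 409 bp after the TSS in a coding exon. AT4G33585, an uncharacterised protein, followed at 14.4 and AT5G22310, annotated as trichohyalin-like, at 14.3, the latter in a 5′ UTR. PEX11D, a peroxisomal membrane protein of the family that drives peroxisome division, had 12.5. AT1G32360, a CCCH zinc finger protein, had 11.9 and MLS, the malate synthase of the glyoxylate cycle, 11.7. AT5G17070, annotated as a regulatory subunit of protein phosphatase 4, had 11.5 and AT3G04350, a DUF946 protein, 11.24. ATU2AF65A, the large subunit of the splicing factor that reads the 3′ splice site, had 11, and IKU2, a receptor-like kinase that promotes endosperm growth and seed size, 10.04. By position, 5 of these 10 centres lay in coding exons, 4 in 5′ UTRs and 1 in an intron. At PEX11D the summit itself lay upstream of the TSS although the centre lay 32 bp after it.

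**Figure D1:**
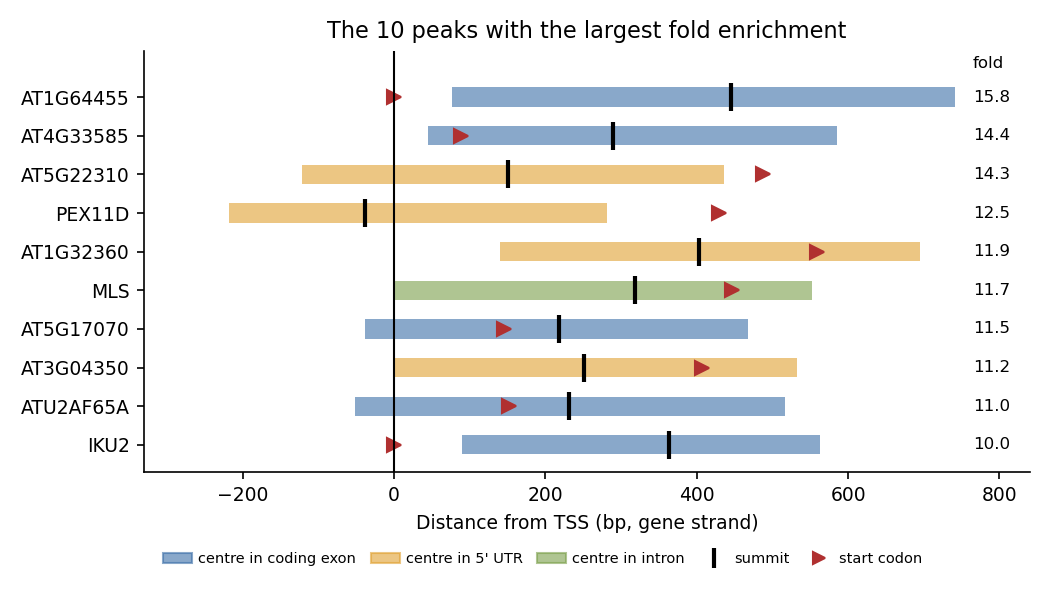
Extent of the 10 peaks with the largest fold enrichment against the TSS of their gene (x axis, bp along the gene), with the summit as a black bar, the start codon as a red arrowhead and the fold enrichment at the right. The peaks of AT1G64455 (15.8) and IKU2 (10.04) lie wholly after the start codon, which at both genes is also the annotated TSS. The peak of AT5G22310 (14.3) ends before its start codon.

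Sequence repeats marked some of these peaks. At AT5G17070 an 18 bp word occurred 3 times within the peak, and the 120 bp at its summit (chr5:5615955-5616074, read along the gene, site in capitals) show the repeated unit around the site.
AT5G17070: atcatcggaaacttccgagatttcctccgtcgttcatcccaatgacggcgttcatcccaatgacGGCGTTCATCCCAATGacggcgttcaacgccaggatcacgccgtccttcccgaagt

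AT1G64455 carries a looser repeat, as its annotated product does, and 6 words of 18 bp occurred more than once within its peak (chr1:23942149-23942268, along the gene). Its site stands in capitals.
AT1G64455: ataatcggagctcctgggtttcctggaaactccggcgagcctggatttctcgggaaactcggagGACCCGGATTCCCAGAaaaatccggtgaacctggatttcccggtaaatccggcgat

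IKU2 had no repeated word of this length, and its site sat with the summit 0.5 bp from its middle (chr3:6843965-6844084).
IKU2: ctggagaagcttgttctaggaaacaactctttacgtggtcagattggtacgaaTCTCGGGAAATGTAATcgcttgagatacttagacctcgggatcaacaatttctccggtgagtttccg

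Counted over whole peaks without overlap, 116 of the 338 peaks held 2 sites and 57 held 3 or more, whereas 126 held 1 and 39 held none. The share with 3 or more was 16.9% (13.2 to 21.2%). It was 14.9% (11.5 to 19.1%) over 500 and up to 1500 bp downstream and 21.3% (17.7 to 25.4%) upstream. Such peaks had a median fold enrichment of 5.52 and 8.32 in these 2 groups. In the 338, the median fold enrichment was 4.06 with no site, 4.41 with 1, 4.90 with 2 and 5.34 with 3 or more. Peaks with more sites were also wider, with a median of 262 bp for 1 site and 419 bp for 3 or more, so that number and width cannot be told apart. AT5G07545, an uncharacterised protein, held the most, with 7 sites and a fold enrichment of 5.34, and AT4G33585 held 4.

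The score of the site and the height of the peak were weakly related. With the peaks ordered by their best score and split into 4 groups of 84 or 85, the median fold enrichment was 4.33 in the lowest group and 4.68, 4.74 and 4.78 in the others. Across the 338 peaks of this one library, Spearman's rho between the score and the fold enrichment was 0.16, and between the width and the fold enrichment it was 0.57. Distance from the TSS and fold enrichment had a rho of -0.033. The 75 peaks without a site at the summit had a median fold enrichment of 4.35, the 263 with one 4.73.

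**Figure D2:**
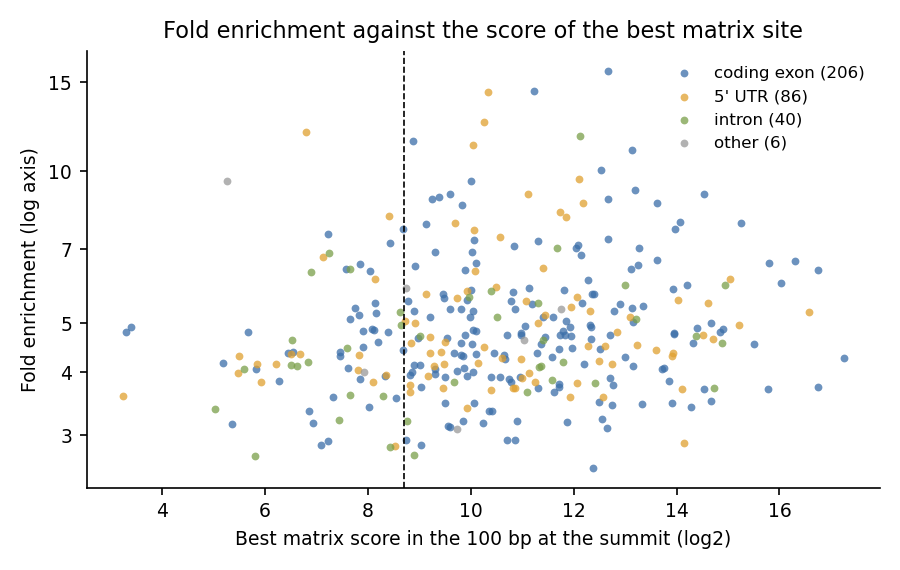
Fold enrichment (y axis, log scale) against the log2 score of the best matrix site in the 100 bp at the summit for the 338 peaks, coloured by the feature at the centre. The dashed line is the threshold of 8.71, and high peaks occur on both sides of it, with AT1G32360 (11.9) on the left.

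Most matches to the matrix had no peak. On chromosomes 2 and 4, the first 500 bp of the coding genes held 3762 sites past the threshold, and 183 of them (4.86%, 4.22 to 5.60%) lay wholly under a nuclear peak. Overlapping sites and sites under the same peak were counted separately, and the intervals take no account of this. The share was 2.76% (2.16 to 3.53%) for scores up to 10, 6.97% (4.80 to 10%) for 11 to 12, 16.9% (10.1 to 26.8%) for 13 to 14 and 30.8% (12.7 to 57.6%) for the 13 sites at 15 or more. The depth of the libraries is unknown, so a site without a peak was not detected in this library and is not shown to be unbound.

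**Figure D3:**
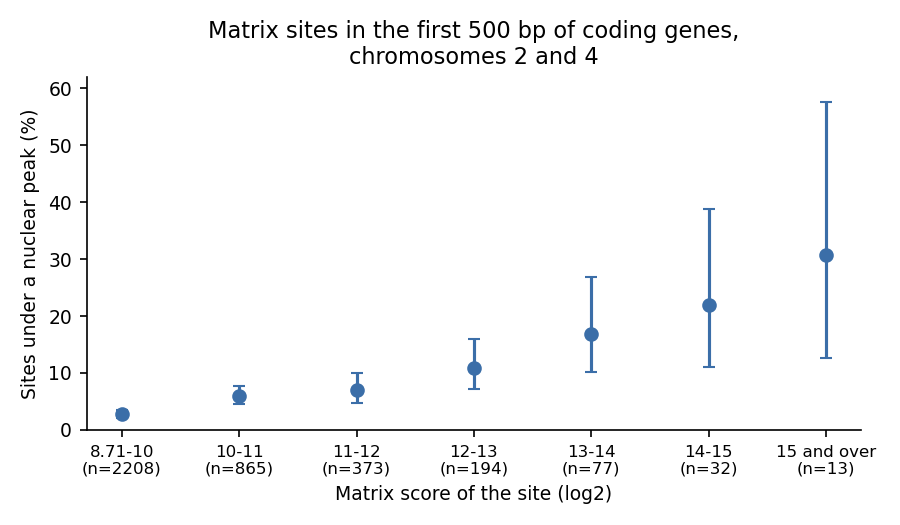
Share of matrix sites in the first 500 bp of coding genes that lay under a nuclear peak (y axis, percent, with 95% Wilson intervals), by score (x axis, log2, number of sites below), on the 2 chromosomes not used for learning. The points run from 2.76% in the lowest band to 30.8% in the highest, where 13 sites give a wide interval.

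Within the 500 bp, few peaks lay close to the TSS. The successive 100 bp held 35, 60, 88, 88 and 67 peaks, and the median distance was 278.5 bp. Their median fold enrichment lay between 4.47 and 4.80 in every one of these bins, with no order along the gene. At the near end, AT3G01030 had its centre on the TSS itself (fold enrichment 7.85), AT1G17490 lay at 4 bp (4.58) and ATFP8 at 8 bp (5.00). At the far end, AT4G29610 and AT1G26400 lay at 497 bp (3.47 and 4.05) and AT1G73950 at 498 bp (5.47). Just outside were AT5G27606 at -5 bp (5.14), AT2G05645 at -17 bp (4.86) and AT3G42660 at -18 bp (4.12), and on the other side bZIP6 at 501 bp (4.49) and AT3G43710 and AT2G11010 at 502 bp (4.87 and 6.49).

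**Figure D4:**
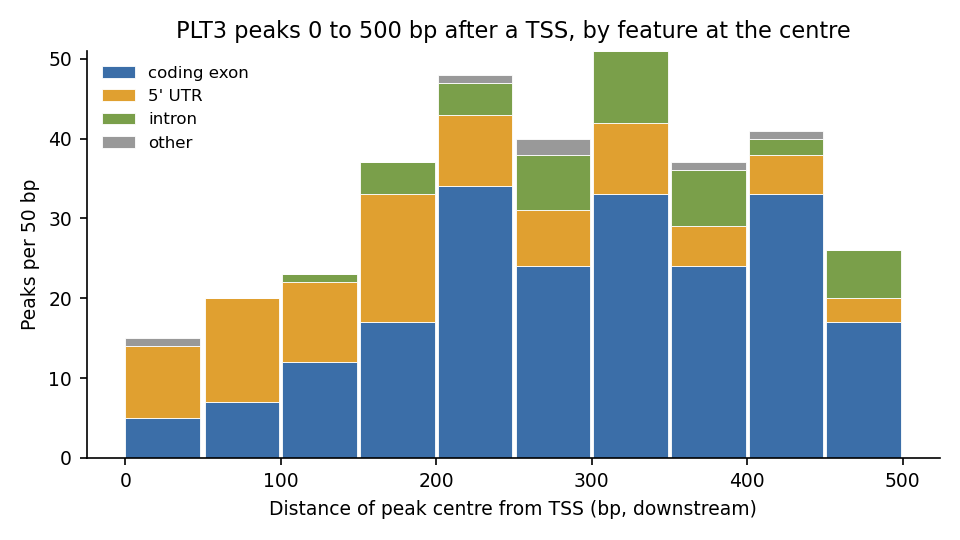
Number of the 338 peaks per 50 bp of distance between the TSS and the peak centre (x axis, bp downstream), stacked by the feature at the centre in the nearest gene, where other means a 3′ UTR or no coding transcript. The bars are lowest near the TSS, with 15 peaks in the first 50 bp, and peaks in 5′ UTRs are most common in the first 200 bp.

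The peaks lay mostly in coding sequence. The centre was in a coding exon at 206 genes (60.9%, 55.7 to 66.0%), in a 5′ UTR at 86 (25.4%, 21.1 to 30.3%), in an intron at 40 (11.8%, 8.81 to 15.7%), in a 3′ UTR at 1 and outside the coding transcripts at 5. Bases sampled every 10 bp over the first 500 bp of all coding genes fell into these first 3 classes at 44.0%, 36.5% and 17.1%. At some genes, AT1G64455 and IKU2 among them, the annotated TSS is the start codon, so that no 5′ UTR precedes it. The classes above took all coding transcripts of a gene, with exons before introns. Counted instead in a single coding transcript per gene, the one starting nearest the TSS, exon 1 held 261 of the centres and intron 1 held 48. The centre lay downstream of the start codon in 241 genes (71.3%), 148 peaks spanned the start codon and 76 spanned the TSS. A site at the summit was found in 81.1% of the peaks in coding exons and 80.2% in 5′ UTRs, but in 57.5% (42.2 to 71.5%) of those in introns. The median fold enrichment was 4.74, 4.51 and 4.33 in this order. GC content moved with the feature: its median over the 200 bp at the centre was 47.0% in coding exons, 40.5% in 5′ UTRs and 37.5% in introns. Of the single bases sampled in all coding genes, pooled by feature, 45.2%, 36.8% and 32.0% were G or C. This is another measure, since a 200 bp window can reach into neighbouring features. The part of GC content in where the peaks lay was not tested.

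The GC content of the 338 peaks had a median of 44.5%, against 43.5% in all nuclear peaks, 41.25% in the upstream peaks and 39.5% over the first 500 bp of all coding genes. Along the gene strand, the mean of 50 bp windows rose from 31.4% at 500 bp before the centre to 44.6% at the centre and was 39.4% at 500 bp after it. In the other nuclear peaks the profile was nearly symmetric, with 38.9%, 43.8% and 39.0% at these places. The 338 were chosen by distance, so the place 500 bp before their centre always lay at or upstream of the TSS. The other peaks mix upstream, downstream and distal places, and their profiles were not taken apart.

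**Figure D5:**
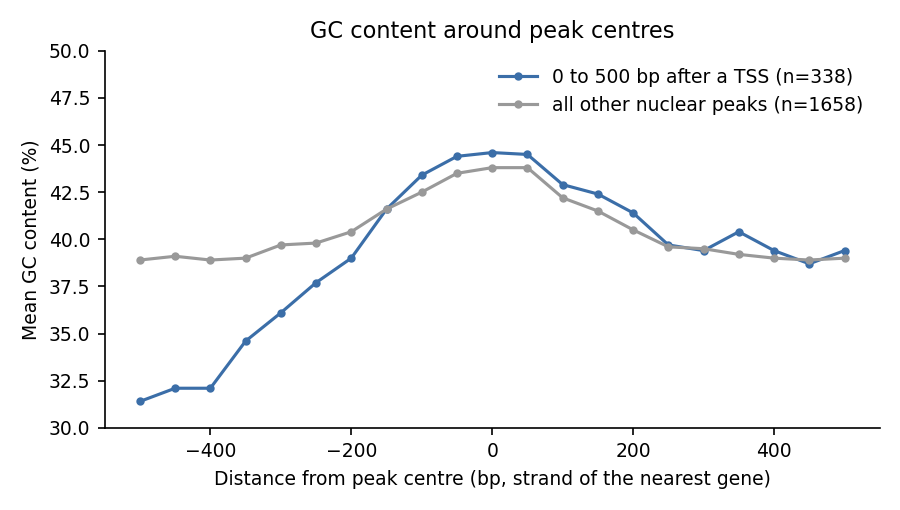
Mean GC content of 50 bp windows (y axis, percent, from 30) against distance from the peak centre along the strand of the nearest gene (x axis, bp), for the 338 peaks and the 1658 other nuclear peaks. Both lines peak near the centre, at 44.6% in the 338 and 43.8% in the others. At 500 bp on the side toward the TSS and upstream they are at 31.4% and 38.9%.

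The strand of the site was compared with that of the gene. Of the 263 sites, 155 (58.9%, 52.9 to 64.7%) read on the strand opposite to the gene. For peaks centred in coding exons this was 60.5% (52.9 to 67.6%), against 46.2% (39.0 to 53.7%) for peaks in coding exons over 500 and up to 1500 bp downstream and 48.3% (42.8 to 53.8%) for upstream peaks. In the first 500 bp of all coding genes, sites in coding exons that lay outside nuclear peaks read on the opposite strand in 54.4% (53.2 to 55.5%). In the reading frame, of the 90 opposite sites inside the coding exons of the 338, 54 (60%, 49.7 to 69.5%) had position 1 of the matrix on the first base of a codon, and among opposite sites outside nuclear peaks 57.0% (55.4 to 58.5%) did.

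Among the PLT genes and ANT, 2 of 7 had a peak after the TSS. These 2 were 0.592% (0.162 to 2.13%) of the genes with a peak centred in the first 500 bp. The class was 0.146% of the coding genes whose TSS was the nearest to any nuclear peak within 4 kb. It was 0.0255% of all coding genes. BBM, which induces embryo formation when overexpressed, had its peak in an intron with a best score of 7.65, under the threshold. PLT5, annotated as AIL5, had its peak in the 5′ UTR with a score of 9.20, just over it. Both sites read on the strand opposite to the gene.
BBM: ctatgCATTGGAAGAAGGGGAaaaaa
AIL5: cacgaCTTTGGAAATAGTGGAaggtc

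The fold enrichments were 6.39 at BBM and 4.69 at PLT5, each from 1 library. PLT5 is on the list of direct targets described next and BBM is not.

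The study combined PLT binding data, these peaks among them, with the response of genes to PLT overexpression into 334 direct target genes, of which 197 form a core expressed in the root apical meristem, the shoot apical meristem and the quiescent centre. Because the peaks helped to make the lists, a gene with a peak is on them more readily by construction, and the counts are not independent evidence of regulation. Of the genes of the 338 peaks, 54 or 16% (12.5 to 20.3%) were direct targets. Of the coding genes nearest to any nuclear peak within 4 kb 8.30% were, and of all coding genes 1.22%. By position, the share of peaks at direct targets was 6.87% (4.62 to 10.1%) over 500 and up to 1500 bp, 5.09% (3.20 to 8.0%) over 1500 and up to 4000 bp and 6.42% (4.48 to 9.13%) upstream. For the core, 32 or 9.47% (6.79 to 13.1%) of the genes were on the list. Of the genes nearest to any nuclear peak within 4 kb 4.52% were, and of all coding genes 0.718%. The share of peaks at core targets was 3.28% (1.84 to 5.78%) over 500 and up to 1500 bp and 2.75% (1.58 to 4.75%) upstream. Of the 32, 19 are in all 4 tables of core genes expressed in the zygote and early embryo. So are 38 of the 62 core genes nearest to any nuclear peak within 4 kb and 110 of all 197.

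The place of the peak was compared between direct targets and the other genes. The centre was in the 5′ UTR at 30 of 54 direct targets (55.6%, 42.4 to 68.0%) and at 56 of the 284 other genes (19.7%, 15.5 to 24.7%). The start codon of the direct targets lay a median of 257.5 bp (213 to 370 bp) from the TSS, against 145 bp (123 to 170 bp) in the other genes. The part of this distance in the place of the peaks was not tested. The GC content at the centre was 42% against 45%. The intervals overlapped for strength, where 28 of 54 (51.9%, 38.9 to 64.6%) reached a q-value of at most 1e-05, against 41.9% (36.3 to 47.7%). A site at the summit was found in 77.8% of each group.

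Among the core targets, AT1G32360 and AT3G04350 had the largest fold enrichment, as given above. SDP1, the lipase that starts the breakdown of seed oil, had 9.65 in the 5′ UTR, and LSM1A, of the complex that promotes mRNA decapping, 8.99. AT4G15770, an RNA-binding protein, had 7.91 and AT1G27050, annotated as a homeobox leucine zipper protein, 7.69. EIN4, an ethylene receptor, had 7.66 in the 5′ UTR. NRP2, a histone chaperone of the NAP1 family, had 6.89 in an intron and no site at the summit, with a score of 7.24. TRM20 had 6.30, also in an intron without a site, and AT1G70480 5.72. Outside the core, MLS led the direct targets, followed by CYP96A11, a cytochrome P450, at 8.81, AIR1, an auxin-induced protein of root cultures, at 6.90, AT2G16760 at 6.54 and UCN, a protein kinase needed for planar growth of the ovule integuments, at 6.37.

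Genes were sorted into classes by keywords in their products. Each class is set beside its share of the genes with a peak and of all coding genes. The genes with a peak are here the coding genes nearest to any nuclear peak within 4 kb. None of the 338 genes was annotated as a ribosomal protein, cyclin or cyclin-dependent kinase, which leaves a share of up to 1.12% for each (upper Wilson bound), where ribosomal proteins are 0.291% of the genes with a peak and 1.41% of coding genes, and cyclins and their kinases 0.146% and 0.39%. The 2 histones (0.592%, 0.162 to 2.13%, against 0.218% and 0.197%) were HTA9, with a fold enrichment of 5.94 in an intron, and HTA8, with 5.05 in the 5′ UTR. Both code for H2A.Z variants. Of 4 genes of DNA replication (1.18%, 0.461 to 3.0%, against 0.437% and 0.386%), RPA1A, a subunit of the protein that coats single-stranded DNA, had 7.05, AT2G13720, a putative topoisomerase, 4.63 and TIL1, the catalytic subunit of DNA polymerase epsilon, 4.22. The 4 chromatin genes (1.18%, against 1.09% and 0.882%) were BRM, the SWI/SNF ATPase, at 5.38, AT5G11780, an SNF2 domain protein, at 5.09, SWI3C, a core subunit of SWI/SNF complexes, at 4.70 and MET1, which maintains CG methylation, at 3.38. AT5G11780 and MET1 had no site at the summit.

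The keywords for transcription factors found 7 of the 338 genes (2.07%, 1.01 to 4.21%), against 4.15% of the genes with a peak and 4.86% of all coding genes. They missed BBM and PLT5, so these shares describe the keywords and do not count all transcription factors. Of the 7, the 3 with the largest fold enrichment are named next. AT4G15545 (9.01), AT1G27050 (7.69) and E2F1 (6.74), which drives genes of the S phase, had the largest fold enrichment. E2F1 had its peak in the 5′ UTR without a site. Of the 5 genes of the auxin pathway (1.48%, against 1.24% and 0.78%), AIR1 (6.90), AT2G36210 (4.35) and AT5G47440 (4.03) came first, and IAA10, an Aux/IAA repressor, had 3.82 in the 5′ UTR without a site.

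Among the 4 receptor-like kinases (1.18%, against 2.26% of the genes with a peak and 1.41% of all coding genes), IKU2 was followed by AT1G34110 (4.35) and AT1G56140 (3.86). Among the 9 other kinases (2.66%, against 2.26% and 2.03%), AT4G02630 (9.16) and UCN were followed by AT2G44830 (5.55). Genes of RNA binding and splicing numbered 6 (1.78%, against 0.801% and 1.63%) with a median fold enrichment of 6.28, led by ATU2AF65A, LSM1A and AT4G15770. The 9 transporters (2.66%, against 2.91% and 2.99%) were led by OCT3, an organic cation transporter (8.55), UTR1, a UDP-sugar transporter (6.35), and AT1G48640 (6.01). The 14 F-box proteins and ubiquitin ligases (4.14%, against 3.79% and 4.07%) were led by AT3G45510 (6.37), AT2G03000 (5.81) and AT4G23960 (5.59). Genes annotated by galactose oxidase/kelch repeats, such as AT2G22060 (8.12) and AT5G03000 (7.91), matched no keyword. Whether any of them codes for an F-box protein was not examined. Glycosyltransferases, glycosyl hydrolases and cell wall enzymes numbered 8 (2.37%, against 2.91% and 2.57%), with GH9B6 (6.39), AT4G19730 (5.29) and AT4G20480, a putative endonuclease or glycosyl hydrolase (5.28), first. The 6 cytoskeleton genes (1.78%, against 1.53% and 1.01%) were led by FH3 (4.72), AT3G30230 (4.36) and AT5G55400 (4.15), and the 5 pentatricopeptide proteins (1.48%, against 1.09% and 1.02%) by AT2G33760 (7.15), AT5G16640 (4.37) and AT3G11460 (3.79). The 4 heat shock proteins and chaperones (1.18%, against 0.801% and 0.904%) were led by AT3G42870 (5.80), AT1G59860 (5.72) and AT1G56300 (5.00). The keywords for translation found 2 genes (0.592%, against 0.364% and 0.823%), AT4G26310, of the elongation factor P family (4.65), and AT1G67360 (4.38), which is annotated as a rubber elongation factor protein and is no translation factor. Uncharacterised proteins were the most numerous, with 44 genes (13%, against 16.1% and 14.7%), of which AT2G36440 (7.41) followed AT4G33585 and AT3G04350.

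Some peaks lay in duplicated genes. SK4 and SK3, paralogues of the SKP1 subunit of ubiquitin ligases, had the same 26 bases at their sites, and so did AIR1 and its neighbour AT4G12545.
SK4: ggtgaCATTGGGAAGTGGAATtccgt
SK3: ggtgaCATTGGGAAGTGGAATtccgt
AIR1: cctaaCATTGGGAAACCCACCtgtaa
AT4G12545: cctaaCATTGGGAAACCCACCtgtaa

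The fold enrichment was 4.30 at SK4, 3.20 at SK3, 6.90 at AIR1 and 4.55 at AT4G12545. Reads that map poorly because of a copy had been removed, and their part in these values was not tested. In all, 8 of the 338 peaks shared 30 identical bp with another nuclear peak, 42 (12.4%) had 30 bp that occur elsewhere in the nuclear genome, and 4 genes are annotated as transposon proteins. Sequence that was similar but not identical over 30 bp was not counted. The sites of AT3G08810, AT2G03460 and AT5G51250 differed from one another at few bases. No gene had more than 1 of the 338 peaks. At 18 genes a further nuclear peak within 4 kb had the same nearest TSS, among them EXO70H5, PTAC2, ROP9 and CIPK4. Peaks nearer to the TSS of another gene were not counted. At 41 genes the TSS of a divergent coding gene lay within 500 bp upstream, and 10 centres also lay inside another coding gene, so that the assignment to the nearest TSS does not show which gene a peak serves.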

How the data were processed

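Per the labels and the study's methods, the authors used fastp 0.23.2 for trimming, BWA 0.7.17 for mapping to TAIR10, and SAMtools 1.15 and Sambamba to drop duplicates and reads of mapping quality below 30. MACS3 3.0.0a7 then gave the peaks, with the EGFP library as control and a q-value limit of 0.05. Removing poorly mapped reads lowers the signal in repeated sequence. The deposited list gives fold enrichment (a ratio over local background, taken at the summit), the −log10 of p and of q, and an integer score derived from q that was left aside. It gives no read counts, so the depth is unknown.

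Genes and sequence came from TAIR10.1 (RefSeq), whose nuclear coordinates TAIR10 shares, and 40 organellar peaks were left out. Feature classes took coding exons first, then 5′ UTRs, 3′ UTRs and introns. The matrix was learnt by expectation maximisation from 20 seed words, and the method was checked on simulated windows. Gene classes are keywords in gene products, corrected once after a keyword had matched unrelated names. The target lists came from the study's supplement. Members and lists were chosen with earlier results of these data known. Named genes are the 10 with the largest fold enrichment, the 10 core and 5 other direct targets and the 3 of each class with the largest, PLT genes and ANT, the 3 nearest each end of the range, members with shared sequence and the 3 with the best score. Genes named beyond these were chosen after their values were seen. Shares have 95% Wilson intervals and medians binomial intervals. No test was made, since 1 library per protein gives no replicate error. Alternatives were stricter q-values, summits in place of centres, other sets of TSSs and other windows and thresholds for the matrix. Python 3.11.15, numpy 2.4.6, pandas 2.3.3, scipy 1.17.1 and matplotlib 3.10.9 were used.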

Additional observations from a re-analysis of the deposited data

How the results depend on the processing

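No paired analysis was possible because neither protein has a second library. Among 51 recomputed values, 40 stayed within 1.5 times (counts) or within the 95% interval (shares and medians), and 11 moved. With q-values of at most 1e-05 there were 147 peaks, with a median fold enrichment of 5.861, a site at 84.35% of summits, 28 direct targets and 16 core targets, since this setting keeps only the strongest peaks. With the TSS of every annotated gene there were 452 peaks, of which 336 were among the 338, and coding exons held 44.47% and 5′ UTRs 18.14% of the centres, because non-coding genes then take peaks too. The share with a site was 65.68% in windows of 200 bp, 39.64% with a threshold that 1% of flanks pass, 86.69% with one that 10% pass, and 48.82% in windows at the peak centre. The cause was not tested, but the summit lay a median of 33.0 bp from the centre. With summits in place of centres 319 of the 338 peaks stayed in the range. The unknown depth limits every statement on sites without a peak.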
